A study of Homo sapiens with 15 samples.

Results

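The 10 genes described here belong to the NF-kB pathway and were taken by symbol: the subunits NFKB1, NFKB2, RELA and RELB, the inhibitors NFKBIA, NFKBIE and TNFAIP3, and the target genes CXCL8, ICAM1 and BIRC3. Each symbol matched 1 of the 58395 Ensembl genes in the count table. Of the 10, 9 were among the 16889 genes that passed the low-count filter, and CXCL8 was not. Poly(A) RNA was sequenced from H1299 cells, a long-established line grown from a human non-small cell lung cancer. The cells had been kept for 24 h in complete RPMI with 5% fetal bovine serum and were then held for 12 h in serum-free RPMI of 5 kinds: with 5 mM glucose, with 4 mM glutamine, with both, with neither, or with 5 mM glucose and 4 mM NH4Cl, a salt that supplies ammonium. All groups therefore share the cell line, the absence of serum and the duration, and the labels name no cytokine or other inflammatory agent. Each medium had 3 libraries, 15 in all. They come from 1 cell line, so the values below do not extend to other cells. In bulk RNA, fewer cells that express a gene and less of its RNA per cell cannot be told apart.

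NF-kB proteins act as dimers of RELA, RELB and REL with the products of NFKB1 and NFKB2, which are made as long precursors and shortened. IkB proteins such as those of NFKBIA and NFKBIE hold the dimers in the cytoplasm until the IKK kinase complex marks them for degradation. In the alternative branch the kinase MAP3K14 (NIK) drives processing of the NFKB2 product, the usual partner of RELB. Dimers that reach the nucleus bind kB sites, and many of their targets are parts of the pathway itself, including NFKBIA and TNFAIP3, so transcript levels of these genes are often read as an output of the pathway. Transcript levels do not measure where the proteins are or how active they are.

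Library totals ran from 14914127 to 19938691 counts, and the 10 genes held 0.0554 to 0.0749% of the counts of a library. Levels are given in CPM, counts scaled to a fixed library total after TMM correction, as mean ± SD of 3 libraries, and each log2 difference comes with its standard error (SE). The TMM factor, which corrects for the make-up of a library, was 0.7928 to 0.7935 with neither nutrient and 1.006 to 1.086 elsewhere, so comparisons with that medium depend on the scaling and are also given on library totals. Libraries 2 with neither nutrient, 1 with glucose and 3 with both held more genes at 1 to 5 counts than the others (12204 to 16385). Of the 5 carcinoma markers the line expressed KRT8 and KRT18, at 2703 to 9673 counts per library, whereas EPCAM and CDH1 were at 0 to 16 and 0 to 6 counts and KRT19 at 12 to 26. VIM, a mesenchymal marker, held at least 29299 counts in every library. The 6 leukocyte, 4 fibroblast and 3 endothelial markers reached at most 94 counts (CORO1A), with PTPRC at 0 in 10 libraries and CDH5 at 0 in 10. Summed over the list, the leukocyte markers lay at 6.7 to 8.69 CPM with neither nutrient, 6.14 to 6.83 with both, 5.62 to 5.85 with glutamine, 2.34 to 2.99 with NH4Cl and 1.87 to 2.72 with glucose. They were thus higher with neither and with both than with glucose, as BIRC3, NFKBIA and NFKBIE are below. They were also higher with glutamine than with glucose, whereas BIRC3 (40.56 against 97.8 CPM) and NFKBIA (14.24 against 17.64) were lower there and NFKBIE was not called. Of the 6 leukocyte markers 2 passed the low-count filter. The carcinoma markers summed to 1200 to 1260 CPM with neither, 770 to 776 with glutamine, 611 to 645 with both, 466 to 476 with NH4Cl and 451 to 461 with glucose, and the fibroblast markers to 2.76 to 2.99 with both and 1.03 to 2.42 elsewhere. The part of these markers in the results was not tested.

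Per kilobase of exon, a scale that allows genes to be compared, NFKB2 and RELB were the most abundant of the 10, with means over the 5 media of 40.8 and 37.9 CPM per kb. RELA followed at 18.1, BIRC3 at 14.95, NFKB1 at 13.1, NFKBIE and ICAM1 at 10.8 each, NFKBIA at 8.54 and TNFAIP3 at 2.52 CPM per kb. CXCL8 stood at 0.0347 CPM per kb, below the others by far. The subunits of the alternative branch thus had more transcript per kb than RELA and NFKB1 on the average over media. With both nutrients RELB lay at 22.6 ± 0.981 CPM per kb against 40.3 ± 0.775 for NFKB2, while with neither it was the higher, at 51.6 ± 0.231 against 44.95 ± 0.87.

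**Figure D1:**
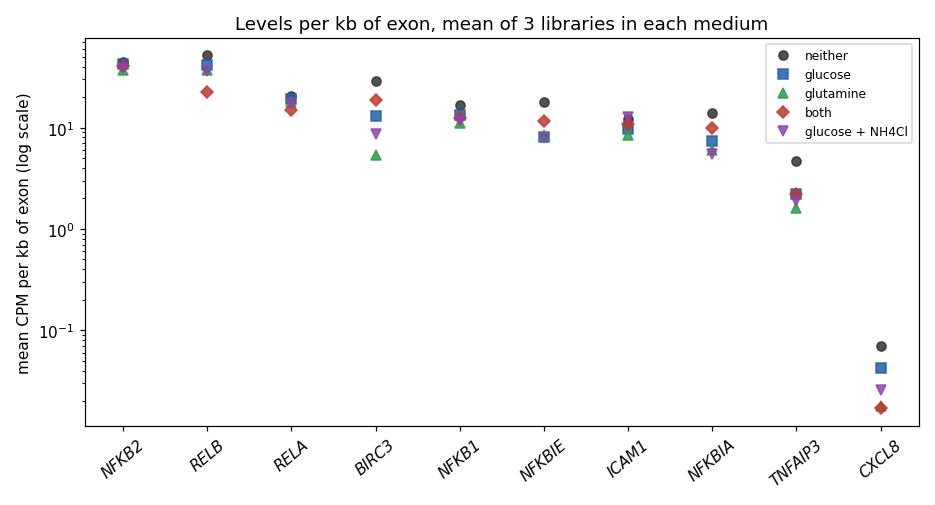
Mean CPM per kb of exon (vertical axis, logarithmic) of the 10 genes, ordered from left to right by their mean over the 5 media, with a symbol for each medium (mean of 3 libraries). NFKB2 and RELB are at the top, CXCL8 is at the bottom, and BIRC3 has the widest spread over media among the tested genes, from 5.39 to 29 CPM per kb.

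RefSeq promoter windows were searched for exact matches to a kB consensus next to the starts of these genes. Stretches of them are printed as a description, and a link between these sequences and the levels was not tested. A window covers 250 bases before and 50 after a transcript start (GRCh38.p14). The search used the degenerate kB decamer consensus GGGRNNYYCC on both strands, where R is A or G, Y is C or T and N is any base. A match is present in 11.3% of all 35116 windows. The table held windows for 8 of the 10 genes (12 windows), and 6 windows of 5 genes held a match: NFKB1, NFKB2, NFKBIA, TNFAIP3 and BIRC3. The windows of RELA, CXCL8 and ICAM1 held no match to these letters. A kB site that departs from the consensus in any base is missed by this search, so a window without a match may still hold one. RELB and NFKBIE had no entry. In the sequences, read 5′ to 3′ on the strand of the gene, capitals mark the matches.
NFKBIA, 250 bases before the start, chr14:35404750-35404999, minus strand: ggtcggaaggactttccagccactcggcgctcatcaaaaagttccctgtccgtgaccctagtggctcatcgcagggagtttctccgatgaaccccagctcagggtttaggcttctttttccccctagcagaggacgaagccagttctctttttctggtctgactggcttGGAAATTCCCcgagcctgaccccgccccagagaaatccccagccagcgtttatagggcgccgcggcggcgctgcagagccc
BIRC3, 250 to 35 bases before the start, chr11:102317234-102317449, plus strand: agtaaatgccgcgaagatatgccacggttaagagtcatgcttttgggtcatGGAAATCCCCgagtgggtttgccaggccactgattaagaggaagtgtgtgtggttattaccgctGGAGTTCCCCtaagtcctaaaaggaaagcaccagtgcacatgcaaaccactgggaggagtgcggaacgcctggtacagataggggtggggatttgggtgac
NFKB1, 59 to 30 bases before the start, chr4:102501300-102501329, plus strand: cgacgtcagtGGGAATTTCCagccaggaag
TNFAIP3, 71 to 42 bases before the start, chr6:137867188-137867217, plus strand: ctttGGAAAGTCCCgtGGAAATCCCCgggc
NFKB2, 116 to 87 bases before the start at 102394578, chr10:102394462-102394491, plus strand: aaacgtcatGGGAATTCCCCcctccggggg
NFKB2, 31 to 2 bases before the start at 102395705, chr10:102395674-102395703, plus strand: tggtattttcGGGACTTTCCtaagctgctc
The NFKBIA match lay on the strand opposite to the gene, 81 to 72 bases before the start. BIRC3 held its 2 matches on the opposite strand as well, from 199 and 135 bases before the start. NFKB2 had matches in 2 of its 3 windows, and in the stretch printed first they overlapped each other across both strands. Further NFKB2 matches are not printed. They lay from 78 bases before the start at 102394578 and from 176 bases before the start at 102395705. The stretches of TNFAIP3 and the first of NFKB2 lie wholly in exons of GENCODE 29, which places exons upstream of these RefSeq starts, and those of NFKB1 and the other of NFKB2 lie there in part. A match is a description of the letters and says nothing about binding in these cells.

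Of the subunits, NFKB1 (ENSG00000109320, chr4:102501329-102617302, GRCh38, plus strand), the precursor of the short partner of RELA, was highest with neither nutrient, at 106.5, 103.5 and 102.2 CPM. With glucose it stood at 83.4, 81.6 and 86.6 CPM, with glutamine at 69.8, 68.04 and 69.9, with both at 76.8 to 80.1 and with glucose and NH4Cl at 71.7, 72.9 and 74.5. The libraries with neither lay above all others, and those with NH4Cl lay just above those with glutamine without overlap, a difference of 0.08 (SE 0.0363) that missed the threshold (adjusted p = 0.0517). NFKB2 (ENSG00000077150, chr10:102394110-102402529, plus strand), the precursor in the alternative branch, varied least of the 9 tested genes on TMM scaling. Its means were 201.5 ± 3.9 CPM with neither, 191.5 ± 5.63 with glucose, 180.7 ± 3.47 with both, 175.5 ± 6.1 with NH4Cl and 164.7 ± 2.39 with glutamine. Its libraries with neither (197.1 to 204.1) and with glucose (186.4 to 197.5) overlapped, and both against NH4Cl did not pass (adjusted p = 0.19). On library totals NFKB1 and NFKB2 were instead highest with glucose, at 89.81 ± 2.6 and 205.2 ± 6.24 CPM. NFKB2 was then lowest with neither, at 159.7 ± 3.14 CPM.

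RELA (ENSG00000173039, chr11:65653596-65663094, minus strand), the main transactivating subunit, stood at 111.9, 112 and 113.4 CPM with neither nutrient and at 105.3, 106.8 and 105.7 with glucose. It was lowest with both, at 83.4, 80.4 and 81.7 CPM. Glutamine (91.9 to 100.7) and NH4Cl (92.2 to 101.1) gave overlapping values between those (adjusted p = 0.81). RELB (ENSG00000104856, chr19:45001430-45038198, plus strand), the subunit of the alternative branch, followed the same order with a wider range. It stood at 157.1, 157 and 155.8 CPM with neither nutrient, at 125.3, 129.5 and 124.9 with glucose, at 115.1, 112.9 and 110.2 with glutamine and at 106.6, 108.6 and 116.4 with NH4Cl. With both nutrients RELB fell to 72, 67.4 and 66.5 CPM, below every other library. Glutamine and NH4Cl were again not told apart (adjusted p = 0.441).

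Among the inhibitors, NFKBIA (ENSG00000100906, chr14:35401511-35404749, minus strand), which encodes IkB-alpha, stood at 33.5, 31.5 and 33.4 CPM with neither nutrient. With both it stood at 24.6, 23.7 and 22.9 CPM, with glucose at 17.1, 18.2 and 17.6, with glutamine at 14.3, 13.9 and 14.5, and with NH4Cl at 13.8, 11.6 and 13.3. The medium with both was therefore second highest, and the libraries of the lowest pair, glutamine and NH4Cl, did not overlap, although their difference did not pass the test (-0.14, SE 0.0817, adjusted p = 0.118). NFKBIE (ENSG00000146232, chr6:44258166-44265788, minus strand), which encodes IkB-epsilon, was at 46.7, 46 and 46.8 CPM with neither and at 30.6, 29.9 and 29 with both. The other 3 media overlapped between 19.5 and 22.8 CPM, and neither glutamine against glucose (adjusted p = 0.347) nor NH4Cl against glucose (0.873) passed. TNFAIP3 (ENSG00000118503, chr6:137867188-137883312, plus strand), the ubiquitin-editing enzyme A20 that ends signalling, stood at 24.5, 24 and 22.1 CPM with neither nutrient. All other libraries lay between 7.92 and 11.9 CPM, with glucose (11.3 ± 0.932) and both (11.1 ± 0.838) not told apart (adjusted p = 0.867) and glutamine lowest (8.2 ± 0.465). An antisense gene overlaps 95 bases of TNFAIP3 exon and held 4 to 28 counts per library, and since it is unstated whether counting used strand, a few reads of TNFAIP3 may be its own or its neighbour's.

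Of the targets, BIRC3 (ENSG00000023445, chr11:102317450-102339403, plus strand), which encodes the ubiquitin ligase cIAP2 that also acts at TNF receptors, had the widest range. It stood at 223.4, 218 and 213.6 CPM with neither nutrient, at 138.8, 143.3 and 138.9 with both and at 96.7, 94.4 and 102.3 with glucose. With NH4Cl it was at 66.9, 64.3 and 63 CPM and with glutamine at 40.4, 41 and 40.2. No library of any medium overlapped with that of another, and every neighbouring pair in this order passed the test. ICAM1 (ENSG00000090339, chr19:10270835-10286615, plus strand), an adhesion molecule for leukocytes, stood at 49.1, 46.7 and 44.8 CPM with NH4Cl and at 45.1, 44.1 and 47.2 with neither, which overlapped on TMM scaling (adjusted p = 0.416). It followed with both at 43.9, 38.4 and 38.7, with glucose at 37.4, 35 and 35.4 and with glutamine at 31.45, 31.05 and 31.56 CPM. ICAM1 was the one tested member whose mean was highest with NH4Cl. A pair of antisense genes overlaps its exons, with at most 5 counts in a library. CXCL8 (ENSG00000169429, chr4:73740506-73743716, plus strand), the neutrophil chemokine interleukin 8, had 19 counts in the 15 libraries together. The counts were 6, 0 and 1 with neither, 2, 2 and 1 with glucose, 0, 0 and 2 with glutamine, 1, 1 and 0 with both and 1, 2 and 0 with NH4Cl. Only library 1 with neither nutrient lay above the floor of 3 counts, which corresponds to 0.15 to 0.201 CPM, so no difference in CXCL8 was detectable at this depth. This floor covers counting error only, because the reads carry no molecular identifiers and need not be independent molecules.

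**Figure D2:**
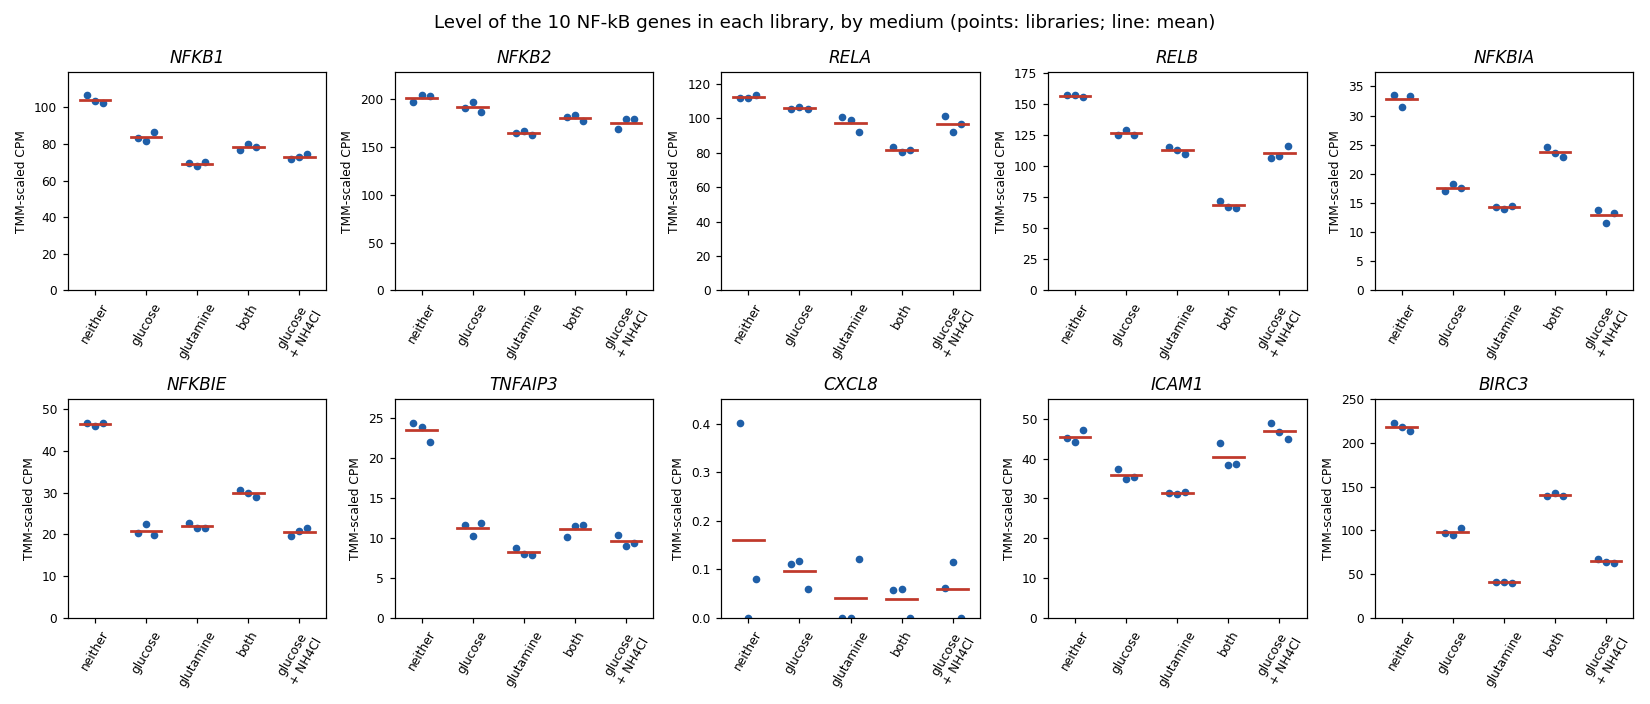
TMM-scaled CPM (vertical axis from 0, own scale in each panel) of the 10 genes in the 15 libraries, by medium. Points are libraries and lines are means of 3. RELA and RELB are lowest with both nutrients, whereas BIRC3, NFKBIA and NFKBIE have their second highest level there, and CXCL8 stays at 0 to 6 counts.

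The first comparison asked what glutamine changed in cells that had glucose (both against glucose). The subunits fell and most of the inhibitors and targets rose. RELB fell from 126.6 ± 2.56 to 68.6 ± 2.98 CPM, by 0.88 (SE 0.0339) on the log2 scale (adjusted p = 1.29e-62), and RELA fell by 0.37 (SE 0.0335, adjusted p = 1.69e-21). BIRC3 rose by 0.52 (SE 0.0312), from 97.8 ± 4.09 to 140.3 ± 2.59 CPM, NFKBIE by 0.51 (SE 0.0612) and NFKBIA by 0.43 (SE 0.0691). TNFAIP3 did not pass, at -0.02 (SE 0.091). Of the 9 tested genes 4 were higher and 4 lower, beside 67.9% of all tested genes called (34.2% higher, 33.7% lower), so a count of 8 is close to the background. The members' median was -0.02, beside 0.0047 for all genes. The smaller calls did not hold in every fit that left out a single library. NFKB1 at -0.10 was lost without library 1 with both (-0.08) or library 3 with glucose (-0.07). NFKB2 at -0.08 was lost without library 3 with both (-0.07) or library 2 with glucose (-0.06). ICAM1 at 0.17 was lost without library 1 with both (0.10).

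Elsewhere in the pathway, glutamine added to glucose lowered 2 of the 5 other subunit and IkB-family genes and raised 1 (median -0.17). Beside these lists and the target lists below, 34.2% of all tested genes were called higher and 33.7% lower. NFKBIB, which encodes IkB-beta, fell by 0.92 (SE 0.0355), from 112.4 to 59.5 CPM, in contrast to the rise of NFKBIA and NFKBIE. Of the 10 kinases and partners of the IKK and TAK1 complexes 4 rose and 2 fell, led by IKBKG (the scaffold NEMO) at 0.55 and MAP3K7 (TAK1) at 0.48, while its partner TAB2 fell by 0.43. Of 24 tested receptors and adaptors 9 rose and 11 fell. RBCK1, a part of the linear ubiquitin ligase, fell by 0.97, and IRAK4, a kinase of interleukin 1 and Toll-like receptor signalling, rose by 0.78. Of the 10 negative regulators 5 rose and 3 fell, among them the ubiquitin ligase ITCH and TAX1BP1, which fell by 0.78 and 0.71 and both work with A20, while ZC3H12A, which degrades cytokine transcripts, rose by 0.74.

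The target lists held few cytokines: 6 of 18 cytokine and chemokine genes passed the low-count filter. CXCL2, a neutrophil chemokine like CXCL8, was abundant and fell by 1.97 (SE 0.0303) with glutamine, from 303.6 to 77.5 CPM (adjusted p = 3.01e-115). In that list 1 gene rose and 2 fell. Of 10 tested surface, protease and secreted targets 6 rose and 3 fell (median 0.60), with CD83 up by 1.44, PLAU (the protease urokinase) up by 1.06 and MMP1, a collagenase, down to 2.81 from 10.5 CPM (-1.89). Of 11 tested survival and other targets 4 rose and 6 fell (median -0.52), with GADD45B at -1.66 and SQSTM1 at -1.53. The target lists thus did not share a direction, as BIRC3 on one side and CXCL2 on the other also show.

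The second comparison asked what NH4Cl did in cells with glucose. Members differed by -0.60 to 0.38 on the log2 scale, and most fell. BIRC3 fell by 0.60 (SE 0.0356) on the log2 scale, from 97.8 ± 4.09 to 64.7 ± 1.96 CPM (adjusted p = 9.99e-37), and NFKBIA by 0.45 (SE 0.0788), from 17.6 ± 0.573 to 12.9 ± 1.19. ICAM1 rose by 0.38 (SE 0.0503), from 35.9 ± 1.29 to 46.9 ± 2.13 CPM. All 4 subunits fell, NFKB1 by 0.20, RELB by 0.20, RELA by 0.13 and NFKB2 by 0.13. In all, 1 of 9 was higher and 6 were lower, beside 29.6% of all tested genes called (12.7% higher, 16.9% lower), with a median of -0.20 against -0.01 for all genes. NFKBIE (-0.02, SE 0.0662) and TNFAIP3 (-0.23, SE 0.0951, adjusted p = 0.0539) did not pass, and TNFAIP3 passed without library 2 with glucose (-0.29) or library 1 with NH4Cl (-0.29). Against a 1.2-fold change BIRC3 alone of the 9 remained called. Ranked by fall among the 11281 genes that average 5 CPM or more, BIRC3 stood at place 34 and NFKBIA at place 127.

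With NH4Cl, of the 5 other subunit and IkB-family genes NFKBIZ, a nuclear IkB protein, rose by 0.58 and 2 fell, BCL3 by 0.28 and NFKBIB by 0.16. Beside the lists here, 12.7% of all tested genes were called higher and 16.9% lower. Of the kinases 2 rose and 4 fell, with MAP3K14 down by 0.32 (SE 0.0321), and of 24 receptors and adaptors 2 rose and 7 fell. Of the negative regulators 2 rose and 3 fell. CXCL2, the one called cytokine or chemokine, fell by 0.30. Among the surface and secreted targets PTX3 fell by 0.75 and PLAU rose by 0.21 (1 rise and 2 falls), and among the survival and other targets 1 rose and 6 fell, led by GADD45B at -0.54 and MYC at -0.48.

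Setting NH4Cl in place of glutamine, with glucose in both media, asked how far ammonium stands in for glutamine. This comparison shares the libraries with both nutrients with the first one and those with NH4Cl with the second. BIRC3 was 2.17 times lower with NH4Cl (64.7 against 140.3 CPM, log2 -1.12, SE 0.0341, adjusted p = 1.11e-77), NFKBIA differed by -0.88 (SE 0.0752) and NFKBIE by -0.53 (SE 0.0621). RELB was 1.61 times higher (110.5 ± 5.17 against 68.6 ± 2.98 CPM, log2 0.69, SE 0.0346), RELA differed by 0.24 and ICAM1 by 0.22. In all 3 members were higher and 5 lower, beside 64.6% of all tested genes called (31.2% higher, 33.4% lower), with a median of -0.10 against -0.01. NFKB2 did not pass (-0.04, SE 0.028). The call for TNFAIP3 (-0.21, adjusted p = 0.0424) came with overlapping libraries. It was lost when library 2 or 3 with both, or library 2 or 3 with NH4Cl, was left out (-0.20 to -0.17), with DESeq2 (-0.19) and in a fit of the compared groups alone (-0.19). NFKB1 (-0.10) lost its call without library 2 with both (-0.09) and with DESeq2 (-0.08).

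In the same comparison CXCL2 was 246.6 CPM with glucose and NH4Cl against 77.5 with both nutrients (log2 1.67, SE 0.0307), and NFKBIB 100.7 against 59.5 (0.76). Of the 5 other subunit and IkB-family genes 2 were higher and 1 lower, of the 10 kinases 2 higher and 5 lower (MAP3K7 at -0.57, MAP3K14 at -0.34), and of 24 receptors and adaptors 9 higher and 8 lower. Of the negative regulators 3 were higher (ITCH 0.63, TAX1BP1 0.58, CYLD 0.51) and 3 lower. Of the surface and secreted targets 2 were higher and 6 lower (CD83 -1.51, MMP1 1.70), and of the survival and other targets 6 were higher (SQSTM1 1.797) and 4 lower. Of the 6 tested cytokines and chemokines 2 were higher and 1 lower. These counts stand beside 31.2% of all tested genes called higher and 33.4% called lower.

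**Figure D3:**
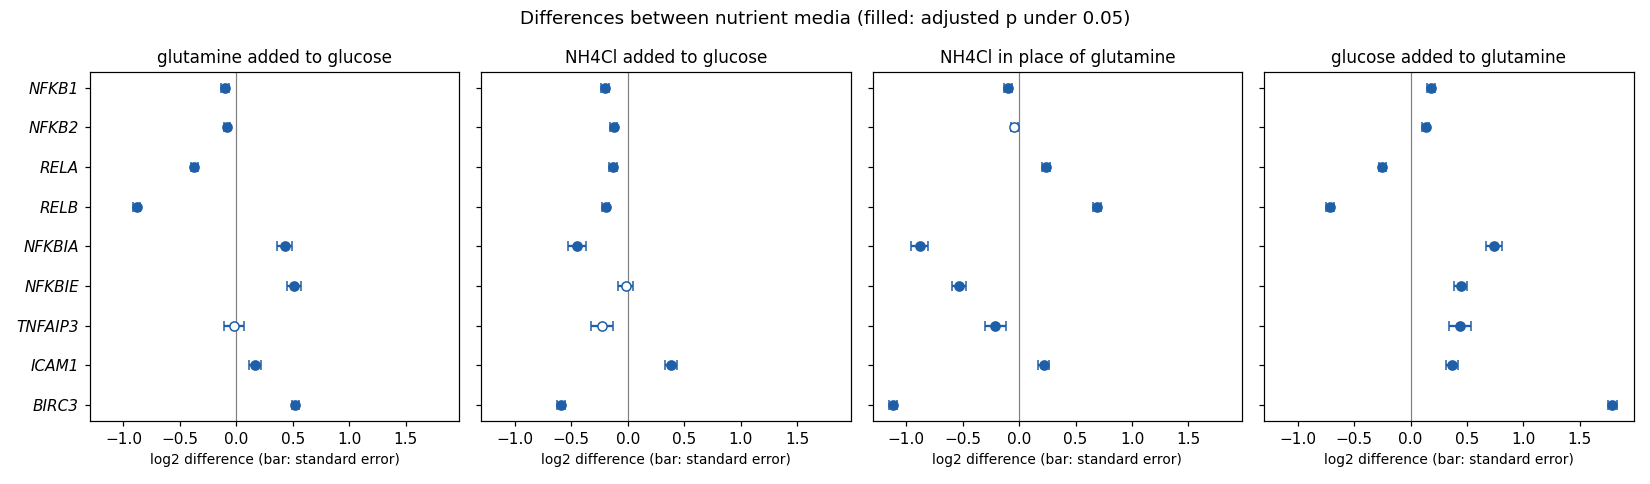
Log2 differences (horizontal axis, bars are standard errors) of the 9 tested genes in 4 comparisons between media that hold a nutrient, with filled symbols where the adjusted p was under 0.05. RELA and RELB lie opposite to BIRC3, NFKBIA and NFKBIE when glutamine is added to glucose, when NH4Cl replaces it and when glucose is added to glutamine, while with NH4Cl added to glucose most genes lie left of 0 and ICAM1 lies right.

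Glucose added to glutamine (both against glutamine) gave the largest rise of any member. BIRC3 rose 3.46-fold, from 40.6 ± 0.425 to 140.3 ± 2.59 CPM (log2 1.79, SE 0.0377, adjusted p = 5.5e-106), which placed it 32nd among the rises of the 11281 genes. NFKBIA rose by 0.74 (SE 0.0723), NFKBIE by 0.44 (SE 0.0604), TNFAIP3 by 0.44 (SE 0.0971) and ICAM1 by 0.36 (SE 0.0523). The subunits divided: NFKB1 rose by 0.18 and NFKB2 by 0.13, while RELB fell by 0.72 (SE 0.0343) and RELA by 0.25 (SE 0.0339). In all 7 of 9 were higher and 2 lower, beside 65.6% of all tested genes called (32.6% higher, 33% lower), and the median was 0.36 against -0.01 for all genes. On library totals the same counts of 7 and 2 were found, although all genes then gave 6762 higher and 4370 lower calls in place of 5502 and 5571.

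Of the kinases MAP3K14 rose by 0.86 (SE 0.0338), from 71.9 to 130.7 CPM, as 4 of the 10 rose and 1 fell. Beside this and the following lists, 32.6% of all tested genes were called higher and 33% lower on TMM scaling. Among the receptors and adaptors 13 rose and 8 fell, with CARD10 at 0.84, RNF31, the catalytic part of the linear ubiquitin ligase, at -0.95, and the interleukin 1 co-receptor IL1RAP at -0.80. Of the other IkB-family genes NFKBIZ (-1.27) and NFKBIB (-0.27) fell and BCL3 rose by 0.49. Negative regulators gave 2 rises and 4 falls on TMM scaling, and 3 and 4 on library totals. CXCL2 fell by 1.58 and MMP1 fell by 2.80, from 19.6 to 2.81 CPM, while CD83 rose by 1.03. Of the survival and other targets SQSTM1, an autophagy receptor, fell by 1.15 and GADD45B by 1.01, and CCND1 (cyclin D1) rose by 0.72. In their lists 1 cytokine or chemokine rose and 2 fell (1 and 1 on library totals), 5 surface and secreted targets rose and 3 fell, and 3 survival and other targets rose and 6 fell (4 and 5 on library totals).

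The remaining pairs of media completed the order. Glutamine alone against glucose alone gave 0 members higher and 8 lower, beside 66.5% of all tested genes called. BIRC3 had the largest fall, by 1.27 (SE 0.039), then TNFAIP3 by 0.46 and NFKBIA by 0.31, and NFKBIE did not pass (0.07, SE 0.0647). All genes gave 5650 higher and 5576 lower calls there, and 4574 and 6655 on library totals. Glucose with NH4Cl against glutamine gave 4 members higher and 0 lower, beside 64.4% called: BIRC3 (0.67), ICAM1 (0.58), TNFAIP3 (0.23) and NFKB2 (0.09). On library totals 7 were higher, with NFKB1 (0.18), RELA (0.09) and RELB (0.07) added, the last 2 having been at -0.01 and -0.03 on TMM scaling, and all genes then gave 6774 higher and 4263 lower calls in place of 5340 and 5540.

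Compared with the medium that held neither nutrient, all 9 tested members were lower with glucose, with glutamine and with both on TMM scaling, and 8 of 9 with glucose and NH4Cl. These comparisons share the libraries with neither nutrient. All tested genes gave 77.8% called with glucose (39.9% higher, 37.9% lower), 72.8% with glutamine (37% higher, 35.8% lower), 72.3% with both (37% higher, 35.3% lower) and 77.5% with NH4Cl (39.6% higher, 37.9% lower). BIRC3 fell most with glucose, with glutamine and with NH4Cl, and RELB with both. With glucose, BIRC3 fell by 1.16 (SE 0.0307), from 218.3 ± 4.91 to 97.8 ± 4.09 CPM, NFKBIE by 1.155 (SE 0.0597), TNFAIP3 by 1.06 (SE 0.0842) and NFKBIA by 0.90 (SE 0.0686). With glutamine, BIRC3 fell 5.38-fold (log2 -2.43, SE 0.0372, adjusted p = 7.47e-131), place 28 among the falls of the 11281 genes, TNFAIP3 by 1.52, NFKBIA by 1.205 and NFKBIE by 1.09. With both, RELB fell by 1.19 (SE 0.0341), then TNFAIP3 by 1.08, NFKBIE by 0.64, BIRC3 by 0.64 and NFKBIA by 0.47. With NH4Cl and glucose, BIRC3 fell by 1.755, NFKBIA by 1.35 and TNFAIP3 by 1.29.

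A part of these directions depended on the scaling. On library totals the median of all genes moved by 0.435 with glucose, 0.343 with glutamine, 0.442 with both and 0.444 with NH4Cl, and members called higher and lower became 4 and 4, 1 and 7, 2 and 4, and 3 and 4. All genes then gave 10138 higher and 3539 lower calls with glucose, 9531 and 3314 with glutamine, 10858 and 2413 with both and 10270 and 3327 with NH4Cl. BIRC3, NFKBIE and TNFAIP3 were lower than with neither nutrient under both scalings in all 4 media. NFKBIA was too, although with both its value on totals was -0.03 and no longer called. The subunits did not keep their direction: with glucose, NFKB1 (0.12), NFKB2 (0.36), RELA (0.35) and RELB (0.13) were all higher on totals, and with NH4Cl NFKB2 (0.25) and RELA (0.23) were. RELB with both was lower under both scalings, at -1.19 and -0.75. RELA with both lay at -0.46 on TMM scaling. On totals it stood at 88.13 ± 1.59 CPM against 89.08 ± 0.697 with neither and was no longer called. ICAM1 against neither lay at -0.17 with both on TMM scaling and at 0.27 on totals. With NH4Cl against neither, ICAM1 lay at 0.04 on TMM scaling and was not called. On totals it stood at 50.61 ± 2.41 CPM with NH4Cl against 36.03 ± 1.29 with neither and was called higher. NFKB2 with glucose (-0.07, libraries overlapping) also lost its call without library 3 with glucose (-0.06).

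**Figure D4:**
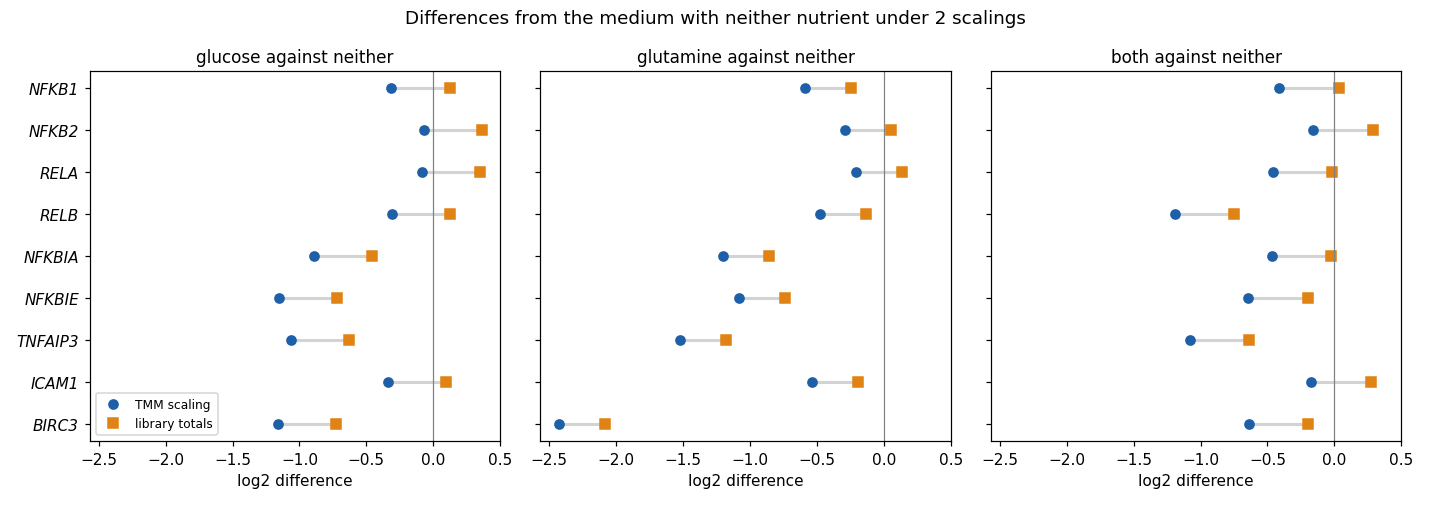
Log2 differences from the medium with neither nutrient (horizontal axis) for the 9 tested genes, under TMM scaling (circles) and on library totals (squares), in the media with glucose, glutamine and both. The squares lie to the right of the circles by about the same distance within a panel, and BIRC3, NFKBIE and TNFAIP3 stay left of 0 under both.

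With glucose against neither, the wider lists held both directions on TMM scaling. Beside them, 39.9% of all tested genes were called higher and 37.9% lower. On totals all genes gave 10138 higher and 3539 lower calls in place of 6735 and 6401. A move toward higher calls on totals was thus shared by all genes and does not set the lists apart. Of the other subunit and IkB-family genes 3 were higher and 2 lower (3 and 1 on totals), of the kinases 6 and 4 (7 and 0 on totals), and of the receptors and adaptors 10 and 8 (15 and 3 on totals). Of the negative regulators 3 were higher and 6 lower (6 and 3 on totals). ZC3H12A fell by 2.175, from 15.3 to 3.37 CPM, and on totals by 1.74. Among the targets IL32 fell by 1.39, LIF by 1.09, PLAU by 1.76, PLAUR by 1.61 and GADD45B by 1.73, while CXCL2 rose by 0.83 and the caspase inhibitor XIAP by 1.93. Of the tested cytokines and chemokines 1 was higher and 4 lower (1 and 3 on totals), of the surface and secreted targets 1 and 7 (2 and 5), and of the survival and other targets 5 and 6 (7 and 3).

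The interaction asked whether glucose acted differently with glutamine than without it. For 7 of the 9 members the difference was positive and for 2 negative, beside 74.8% of all tested genes called (36.8% positive, 38% negative). BIRC3 fell by 1.16 with glucose alone and rose by 1.79 with glucose in glutamine medium, a difference of 2.95 (SE 0.0486, adjusted p = 2.89e-123). For NFKBIA the difference was 1.63 (SE 0.0997), for NFKBIE 1.60 (SE 0.0849), for TNFAIP3 1.505 (SE 0.129) and for ICAM1 0.70 (SE 0.0741). RELB (-0.41, SE 0.0462) and RELA (-0.16, SE 0.0475) were lower than the sum of the single effects gives on the log2 scale. Direction held on library totals for all but NFKB2, which lay at 0.21 on TMM scaling and at -0.13 on totals, so that 6 were positive and 3 negative there, when all genes gave 4328 positive and 8492 negative calls in place of 6214 and 6421. BIRC3 was at place 56 among the positive differences of the 11281 genes. Of the wider lists, 8 of 10 tested surface and secreted targets had a positive difference and 1 a negative one (7 and 1 on totals), with PLAU at 2.12 and MMP1 at -3.615. CXCL2 lay at -2.41, opposite to BIRC3.

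**Figure D5:**
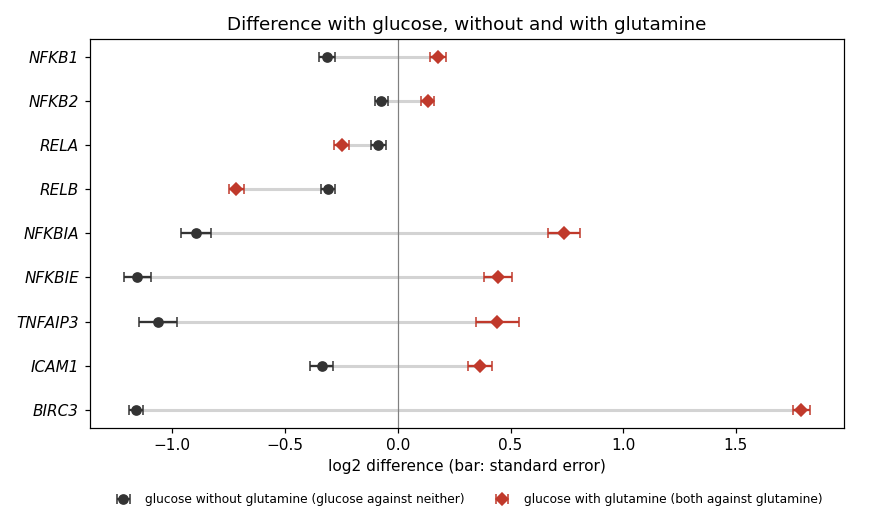
Log2 difference made by glucose (horizontal axis, bars are standard errors) for the 9 tested genes, without glutamine (circles, glucose against neither) and with glutamine (diamonds, both against glutamine), on TMM scaling. In 7 genes the diamond lies right of the circle, in BIRC3 by the widest distance (2.95), and in RELA and RELB it lies left.

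Members were also described by how their levels moved over the 15 libraries, which share the 5 media. Pearson correlations of log2(CPM + 1) are a description of these libraries. They and the likeness below used TMM-scaled values, were not computed on library totals, and depend on the scaling of the libraries with neither nutrient. On totals NFKB1 was lower with neither (82.46 CPM) than with glucose (89.81), whereas TNFAIP3 stayed higher with neither (18.63 against 12.06). NFKB1 and TNFAIP3 had r = 0.97, RELA and RELB 0.965, NFKBIA and NFKBIE 0.933, and NFKBIA and BIRC3 0.924. RELB had only 0.109 with ICAM1, 0.115 with BIRC3 and 0.154 with NFKBIA. RELA and RELB reached 0.572 and 0.541 with NFKB1 and 0.545 and 0.51 with TNFAIP3. Pairs among NFKBIA, NFKBIE, TNFAIP3, BIRC3 and NFKB1 had 0.823 to 0.97. NFKB2 had 0.897 with NFKB1, 0.85 with BIRC3 and 0.659 with NFKBIE, and 0.504 and 0.459 with RELA and RELB. ICAM1 had 0.109 to 0.558, the highest with BIRC3. The correlations thus formed no clean division of the members. Of the whole table, the genes most like RELB were EGR1 (r = 0.993), an immediate early transcription factor that fell from 595.8 CPM with neither nutrient to 12.5 with both, and MXD1 (0.988). Most like BIRC3 were CCNB2 (0.992) and FOXM1 (0.987). For NFKBIA they were PHF19 (0.992) and TACC3 (0.988), for TNFAIP3 CKS2 (0.984) and WEE1 (0.983), for NFKB1 PRKAR2A (0.984) and EXO1 (0.979), and for ICAM1 ENO2 (0.949) and RDH11 (0.942). RELA was most like RELB and then CLASRP (0.958), which lies next to RELB on chromosome 19.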

How the data were processed

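The table the authors deposited holds raw counts per Ensembl gene for the 15 libraries, with no normalization. Per the submitters' processing notes, GRCh38.p12, Subread 1.5.1 with featureCounts, and HISAT2 2.1.0 were used, with no roles stated. Whether counting used strand, and what was done with reads that map to more than 1 place, was, in the sources used here, not given. According to the labels the cells were grown in triplicate. They name no day or batch. The p-values therefore reflect the spread of these samples alone, and that spread may be technical. GENCODE 29 gave gene names, positions and exon lengths, and lacks 120 of the gene IDs.

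The analysis used R 4.3.3. All 15 libraries entered a single edgeR 4.0.16 model with TMM factors, 1 coefficient for each medium and 10 residual degrees of freedom, after filterByExpr. Contrasts were tested two-sided by the robust quasi-likelihood F test, and a gene was called where its Benjamini-Hochberg adjusted p, over the 16889 genes kept, was below 0.05. The script was tested on simulated data. The members and lists were chosen with earlier results of these data known, so counts of members stand beside those of all genes and support nothing by themselves. All members are named. From each wider list, up to 3 called genes per comparison were named, from the largest change down, provided they averaged 5 CPM or more. SOD2, in the list of survival and other targets, matched 2 Ensembl genes, and the first of them was used for that list. Likeness was ranked by Pearson r of log2(CPM + 1).

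Alternatives were DESeq2 1.42.0 size factors and its Wald test, library totals, other low-count filters, a test against a 1.2-fold change, the compared groups alone, a replicate block and leaving out each library. A fit without the 3 libraries that held many low-count genes was added after seeing the data. Residuals of libraries with equal numbers (30 pairs, median r = -0.001) were no closer than those with different numbers (60 pairs, median r = 0.005), and libraries were not paired. Within a medium, pairs of libraries differed by more than counting noise (chi-square per gene 1.231 to 2.462) and 0 were identical. Promoter windows are those of RefSeq on GRCh38.p14.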

Additional observations from a re-analysis of the deposited data

Results flagged for a closer look

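For all 9 tested members the difference made by glucose was not the same with glutamine as without it, by the interaction term of the edgeR fit (differences in log2, glucose with glutamine minus glucose without). It was 2.95 for BIRC3, 1.63 for NFKBIA, 1.6 for NFKBIE, 1.51 for TNFAIP3, 0.7 for ICAM1, 0.49 for NFKB1 and 0.21 for NFKB2, and -0.16 for RELA and -0.41 for RELB. Of all tested genes 74.8% passed the same test, so that passing does not set the members apart. On library totals NFKB2 turned to -0.13.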

How the results depend on the processing

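Against a 1.2-fold change 5 in place of 8 members were called when glutamine was added to glucose (all genes 7417 in place of 11467). With NH4Cl added, 1 in place of 7 was called (444 in place of 4998). When NH4Cl replaced glutamine, 4 in place of 8 were (6416 in place of 10918). For glucose added to glutamine 6 in place of 9 were (6485 in place of 11073). Against neither, 7 in place of 9 were called with glucose (10578 in place of 13136), with glutamine (9159 in place of 12299) and with both (8788 in place of 12209). The interaction also kept 7 in place of 9 (10683 in place of 12635). By construction that test asks for a larger change. On library totals 11 member values changed sign in the 8 comparisons run under every alternative: against neither, with glucose ICAM1 (0.097), NFKB1 (0.122), NFKB2 (0.362), RELA (0.349) and RELB (0.128), with glutamine NFKB2 (0.054) and RELA (0.136), with both ICAM1 (0.27), NFKB1 (0.031) and NFKB2 (0.285), and in the interaction NFKB2 (-0.131). In the other 3 pairs of media, 6 more did: with NH4Cl against neither NFKB2 (0.247) and RELA (0.228), with NH4Cl against glutamine RELA (0.092), RELB (0.073) and NFKBIE (0.013), and with glutamine against glucose NFKBIE (-0.022). The cause was not tested. Leaving out each library gave 6 to 8 members called for glutamine added to glucose, 7 to 8 for NH4Cl added, 6 to 8 for NH4Cl in place of glutamine, 8 to 9 for glucose against neither and 9 in the other 4 comparisons. Without the 3 libraries with many low-count genes the counts were 7, 7, 7 and 9 between nutrient media, 8, 9 and 9 against neither and 9 for the interaction. With the replicate block they were 8, 7, 8 and 9, then 9, 9 and 9, and 9, and the block changed no call of a member. In the main fit 29.6% (NH4Cl added to glucose) to 77.8% (glucose against neither) of all tested genes were called in these comparisons. The shares of all genes under these alternatives are not given here, so these counts describe only how stable the member calls were. Without a low-count filter 5 member calls were lost: NFKB1 (-0.089) and NFKB2 (-0.076) with glutamine added to glucose, RELA (-0.108) with NH4Cl added, and NFKB1 (-0.086) and TNFAIP3 (-0.196) with NH4Cl in place of glutamine. At this depth CXCL8 had too few counts for a test. With NH4Cl added to glucose, the SE was 0.0951 for TNFAIP3, which had 151 to 212 counts per library there, and 0.0279 for NFKB2, a far more abundant transcript.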
